A study of Mus musculus with 9 samples.

Results

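The STAT proteins are a family of transcription factors that wait in the cytoplasm until a cytokine receptor is engaged. Janus kinases bound to the receptor then phosphorylate them, and the STAT proteins pair, enter the nucleus and bind DNA. Interferon gamma (IFNγ) signals through the kinases JAK1 and JAK2 to STAT proteins, and several genes of this pathway are themselves interferon targets. The 6 mouse genes Stat2, Stat3, Stat4, Stat5a, Stat5b and Stat6 were taken by their symbols from a table of 55487 genes.

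Levels come from RNA sequencing, treated as bulk, of the mouse melanoma line B16F10 at 6 h. The groups were IFNγ at 50 ng/mL with FK866 at 50 nM, IFNγ at 50 ng/mL alone, and medium alone, called media below. FK866 is an inhibitor of NAMPT, the enzyme that limits the rate of NAD salvage. Each group has 3 libraries, whose titles all carry the word Control with the number 3, 4 or 5, the treated ones too. The labels do not say what the numbers mean, nor whether each library is a culture of its own. The p-values therefore reflect the spread among these libraries, which may be technical. The treatment text names IFNγ of mouse and of human origin and gives a product number for the mouse protein; which was used is not stated per library. No group here received FK866 without IFNγ.

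Library totals ran from 15317003 to 18466972 counts. Levels are given as CPM, read counts relative to the TMM-scaled library size. Called means an adjusted p below 0.05 in edgeR's quasi-likelihood test over 15237 genes. The cells carried the melanocyte markers they should. All 11 markers fixed for that lineage had counts, and their summed level was 16100 to 17800 CPM with IFNγ plus FK866, 16500 to 17700 CPM with IFNγ and 18300 to 19700 CPM in media, scaled by library totals. The sums hide single markers. Of the 11, 1 was called lower with IFNγ than in media, Mitf, where 0.499% of all genes were. It had 335 ± 60.5 CPM with IFNγ and 807 ± 68.4 CPM in media (SD, n = 3 each; edgeR adjusted p = 7.73e-04). With the number in the titles as a replicate block 5 were lower, against 6.14% of all genes, and 0 higher. Of 12 leukocyte markers 9 had no count in any library, among them Ptprc (CD45), Cd4 and Ncr1. The leukocyte sum was 4.64 to 9.80 CPM with IFNγ plus FK866, 3.21 to 10.2 CPM with IFNγ and 3.67 to 12 CPM in media, and Cd68 was the highest of them. Of 10 markers of fibroblasts, endothelium and keratinocytes 5 had no count, and their sum was 3.92 to 10.5 CPM with IFNγ plus FK866, 3.41 to 8.95 CPM with IFNγ and 7.18 to 15.2 CPM in media. In bulk RNA, a change in the number of cells and a change in RNA per cell cannot be told apart. Irf1, a transcription factor of the IFNγ response, had 747 ± 42.4 CPM with IFNγ plus FK866, 787 ± 34.2 CPM with IFNγ and 17.3 ± 3.31 CPM in media (SD, n = 3 each).

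The 6 genes lie on 3 chromosomes of GRCm38, and all are annotated as protein-coding. Stat4 lies on chromosome 1 from 51987148 to 52107189. Stat6 (127642986 to 127660957) and Stat2 (128270559 to 128292849) lie 609601 bases apart on chromosome 10, both on the plus strand. The other genes form a cluster on chromosome 11, with Stat5b from 100780731 to 100850724 on the minus strand, Stat5a from 100859351 to 100885169 on the plus strand, and Stat3 from 100885098 to 100939540 on the minus strand. Stat5b and Stat5a are separated by 8626 bases. The 3′ ends of Stat5a and Stat3 overlap by 72 bases, and those of Stat6 and Nab2 share 40 bases of exon.

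RefSeq promoter windows of GRCm38.p6, which run from 250 bases before to 50 bases after a transcript start, were available for all 6 genes, 9 windows in all. They were searched on both strands for the gamma-activated site (GAS), read as TTC and GAA with any 3 bases between them, for its wider form with any 4 bases between them, which STAT6 is known to prefer, and for the interferon-stimulated response element (ISRE), read as GAAA and GAAA with any 2 bases between them, which is bound by a complex of STAT2 with IRF9 and by IRF proteins. The stretches shown are the 250 bases before the start of the genes that rose with IFNγ, Stat2 and Stat3, and the part of the Stat4 window around its match. Capitals mark matches.

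Stat2, chr10:128270248-128270497, plus strand: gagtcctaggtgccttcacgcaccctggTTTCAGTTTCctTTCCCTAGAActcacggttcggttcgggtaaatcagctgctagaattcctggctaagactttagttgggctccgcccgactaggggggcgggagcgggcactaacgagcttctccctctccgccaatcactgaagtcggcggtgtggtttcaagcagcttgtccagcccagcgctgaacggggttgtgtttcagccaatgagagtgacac
Stat3, chr11:100939541-100939790, minus strand: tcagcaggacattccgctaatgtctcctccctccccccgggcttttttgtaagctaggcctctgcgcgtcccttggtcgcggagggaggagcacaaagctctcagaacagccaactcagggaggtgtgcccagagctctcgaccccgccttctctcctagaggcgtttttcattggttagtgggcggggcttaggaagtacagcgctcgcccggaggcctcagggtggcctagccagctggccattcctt
Stat4, chr1:52008113-52008182, plus strand: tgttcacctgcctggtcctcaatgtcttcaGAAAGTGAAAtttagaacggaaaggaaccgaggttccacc

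In Stat2, TTTCAGTTTC is an ISRE match on the reverse strand, at -222 to -213 from the start. The match TTCCCTAGAA to the wider GAS form follows at -210 to -201, and the matches do not overlap. Of the 2 Stat4 windows, that of the downstream start holds an ISRE match, GAAAGTGAAA at -97 to -88. No window of Stat3, Stat5a, Stat5b or Stat6 held a match to any of the 3 motifs. For comparison, 3.44% of all 32851 windows held the ISRE letters, 8.30% the GAS letters and 6.95% the wider GAS form. A match describes letters only, and the absence of one says only that these letters are not in this window.

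IFNγ changed the family unevenly. Stat2 and Stat3 rose, by 16.4-fold and 7.29-fold, Stat6 was 1.27-fold higher and was called only in part of the fits, Stat5a and Stat5b were not called, and Stat4 was close to absent. Of the 5 members that passed the filter on low counts, 2 were called higher with IFNγ than in media, where 2.8% of all genes tested were called higher and 0.499% lower. The plot of levels by library shows the 6 genes side by side.

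**Figure D1:**
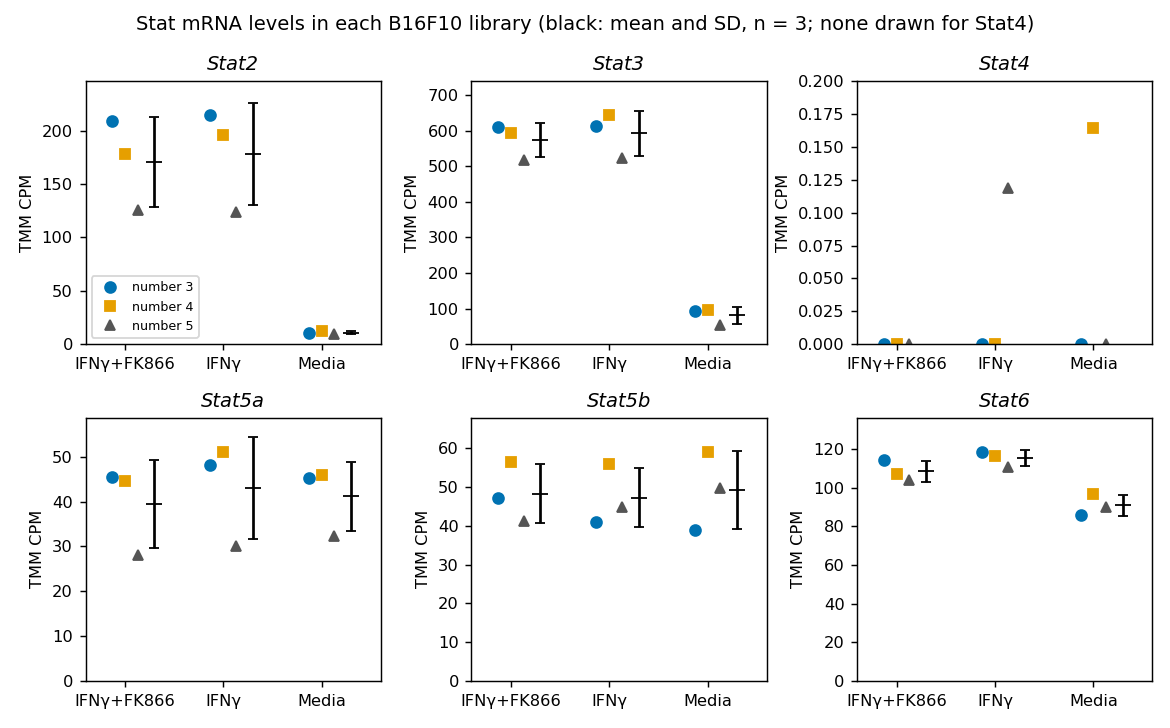
TMM CPM (y axis, linear, from 0) of the 6 Stat genes in each of the 9 libraries, by group; symbols mark the number in the title, and black bars are the mean and SD of 3 libraries. All 6 IFNγ-treated libraries exceed 120 CPM for Stat2 and 500 CPM for Stat3, against at most 12.5 and 96.6 CPM in media.

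Stat2, the STAT protein that joins IRF9 in the antiviral complex ISGF3, had 214, 196 and 124 CPM in the IFNγ libraries numbered 3, 4 and 5, against 10.1, 12.5 and 9.73 CPM in media. The lowest IFNγ library was far above the highest media library. Its log2 fold change was 4.04 (standard error 0.27, edgeR adjusted p = 1.5e-05), the largest change among the 5 Stat genes tested here. The counts behind it ranged from 161 in a media library to 3733 in an IFNγ plus FK866 library.

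Stat3, which carries signals of the interleukin-6 family, had 612, 643 and 522 CPM with IFNγ in numbers 3, 4 and 5, against 93.9, 96.6 and 53.1 CPM in media. The groups did not overlap. Its log2 fold change was 2.87 (standard error 0.22, edgeR adjusted p = 4.23e-05). Media library 5 was low, and the difference between IFNγ and media within number 5 was 3.30 on the log2 scale, against 2.7 in number 3 and 2.73 in number 4.

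Stat6, which carries interleukin-4 and interleukin-13 signals, had 118, 117 and 111 CPM with IFNγ, against 85.6, 96.7 and 90.0 CPM in media. Every IFNγ library was above every media library, as was the case for 7.97% of all genes tested, and the differences within numbers 3, 4 and 5 were 0.47, 0.27 and 0.30 on the log2 scale. The log2 fold change of 0.34 missed the threshold (standard error 0.09, edgeR adjusted p = 0.0878). It was called with the number in the titles as a replicate block (edgeR adjusted p = 4.74e-04), where 8.12% of all genes were called higher, and with DESeq2 (adjusted p = 0.01).

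Stat5a and Stat5b are close relatives that carry prolactin, growth hormone and interleukin-2 signals. Stat5a had 48.1, 51.0 and 30.1 CPM with IFNγ in numbers 3, 4 and 5, against 45.2, 46.0 and 32.3 CPM in media. Stat5b had 41.0, 55.9 and 44.9 CPM with IFNγ, against 38.9, 59.0 and 49.7 CPM in media. The groups overlapped for both genes, and each library with a low value had its counterpart of the same number in the other group. Their log2 fold changes were 0.07 and -0.06, and the 95% intervals with the replicate block ran from -0.10 to 0.20 for Stat5a and from -0.23 to 0.12 for Stat5b (edgeR adjusted p = 1 without the block for each, and 0.771 and 0.792 with it). A rise of Stat5a or Stat5b as large as that of Stat6 lay outside those intervals. Without the block the intervals were wider, from -0.49 to 0.62 for Stat5a and from -0.47 to 0.35 for Stat5b. A rise of that size lay inside them.

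Stat4, known from T and NK cells as the STAT protein of interleukin-12 signalling, did not pass the filter on low counts. It had no count in the 3 IFNγ plus FK866 libraries, 2 counts in the IFNγ libraries, all in number 5, and 3 counts in the media libraries, all in number 4. The upper ends of the exact Poisson 95% intervals of these sums were 0.0704 CPM with IFNγ plus FK866, 0.149 CPM with IFNγ and 0.172 CPM in media, which cover counting error only. By the rule of 3 counts, the 0 counts of 51910509 allow a level of up to 0.0572 CPM. No direction can be read from so few counts. Exons of the overlapping transcript Gm28177 cover 26.7% of the Stat4 exon length, and how reads there were counted was not tested.

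Levels of different genes were compared per kb of annotated exon. With IFNγ, Stat3 stood at 62.1 ± 6.57 CPM per kb, Stat2 at 30.0 ± 8.07, Stat6 at 26.2 ± 0.946, Stat5b at 8.54 ± 1.40 and Stat5a at 6.04 ± 1.59 CPM per kb (SD, n = 3). In media, Stat6 was highest at 20.6 ± 1.27 CPM per kb, followed by Stat5b at 8.88 ± 1.81, Stat3 at 8.52 ± 2.56, Stat5a at 5.77 ± 1.08 and Stat2 at 1.82 ± 0.258 CPM per kb. On this scale Stat2 was the second of the 6 genes with IFNγ and the fifth in media, and Stat3 the first with IFNγ and the third in media. The ranges of Stat2 and Stat6 with IFNγ overlapped (20.9 to 36.1 and 25.1 to 26.9 CPM per kb), as did those of Stat5b and Stat3 in media (7.03 to 10.7 and 5.57 to 10.1). Stat4 was last in every group. The order of Stat3, Stat5a and Stat5b depends on the length used. Per kb of the longest transcript, Stat5a (10.9 CPM per kb) stood above Stat5b (9.07) with IFNγ, and in media Stat3 (13.4) was second, followed by Stat5a (10.4) and Stat5b (9.44).

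**Figure D2:**
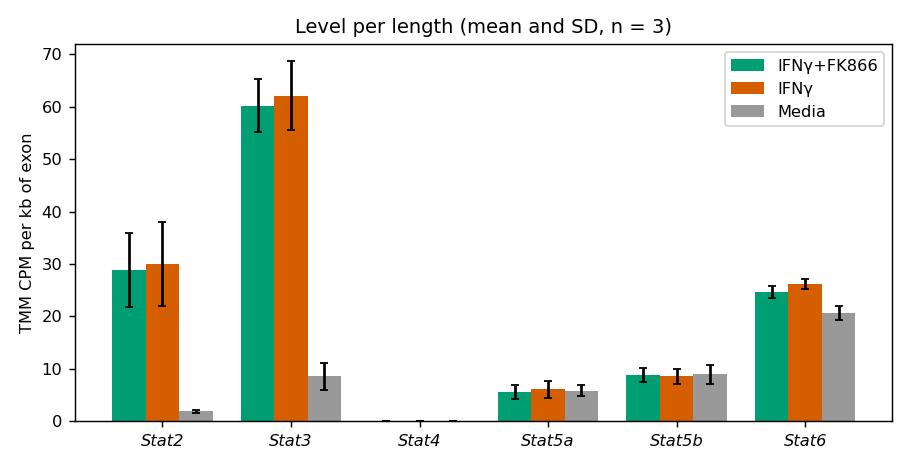
Mean level per kb of exon (y axis, TMM CPM per kb, bars from 0, error bars SD of 3 libraries) of the 6 Stat genes in the 3 groups. Stat6 has the highest bar in media at 20.6 CPM per kb, and Stat3 has the highest bars in both IFNγ groups, 60.2 CPM per kb with FK866 and 62.1 without.

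The effect of FK866 in the presence of IFNγ was read from the IFNγ groups with and without it. None of the 5 Stat genes tested differed between IFNγ plus FK866 and IFNγ, nor did any other gene tested in that fit (0% called; 88 genes had an unadjusted p below 0.05; DESeq2 and limma-voom called 0 genes each). Stat2 had 208, 178 and 126 CPM with IFNγ plus FK866 in numbers 3, 4 and 5, against 214, 196 and 124 CPM with IFNγ. Stat3 had 610, 592 and 518 CPM with IFNγ plus FK866, against 612, 643 and 522 CPM with IFNγ. Within each number, both groups lay close together, and the groups overlapped for every Stat gene tested, where 3.33% of all genes had groups that did not.

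The intervals limit how large an FK866 effect could be. With the replicate block, the 95% interval of the log2 fold change of IFNγ plus FK866 over IFNγ ran from -0.22 to 0.11 for Stat2 and from -0.24 to 0.15 for Stat3. It ran from -0.28 to 0.03 for Stat5a, from -0.14 to 0.21 for Stat5b and from -0.22 to 0.04 for Stat6 (edgeR adjusted p = 0.987 for each, 0.0197% of all genes called). Stat3, Stat5a and Stat6 were lower with FK866 in 3 of 3 pairs of the same number. The log2 differences in numbers 3, 4 and 5 were -0.004, -0.118 and -0.011 for Stat3. They were -0.08, -0.19 and -0.10 for Stat5a and -0.05, -0.12 and -0.09 for Stat6. None of these genes passed the test, and the share of all genes lower in 3 of 3 pairs was not computed. Without the block the intervals were wider, from -0.57 to 0.46 for Stat2 and from -0.50 to 0.41 for Stat3.

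IFNγ plus FK866 was also set against media, a comparison that shares the media libraries with the one above. Stat2 (log2 fold change 3.98, standard error 0.27) and Stat3 (2.82, 0.22) were again called (edgeR adjusted p = 1.7e-05 and 4.76e-05), where 2.76% of all genes were called higher. Stat6 had 114, 107 and 104 CPM with IFNγ plus FK866, against 85.6, 96.7 and 90.0 CPM in media, so that the groups did not overlap (7.98% of all genes were higher in this way). Its log2 fold change was 0.26 (standard error 0.09, edgeR adjusted p = 0.259), and it was called with the replicate block (adjusted p = 0.00678, 8.53% of all genes called higher). Stat5a (-0.06) and Stat5b (-0.03) were not called. The plot of fold changes shows that the block narrows the intervals and leaves the estimates in place.

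**Figure D3:**
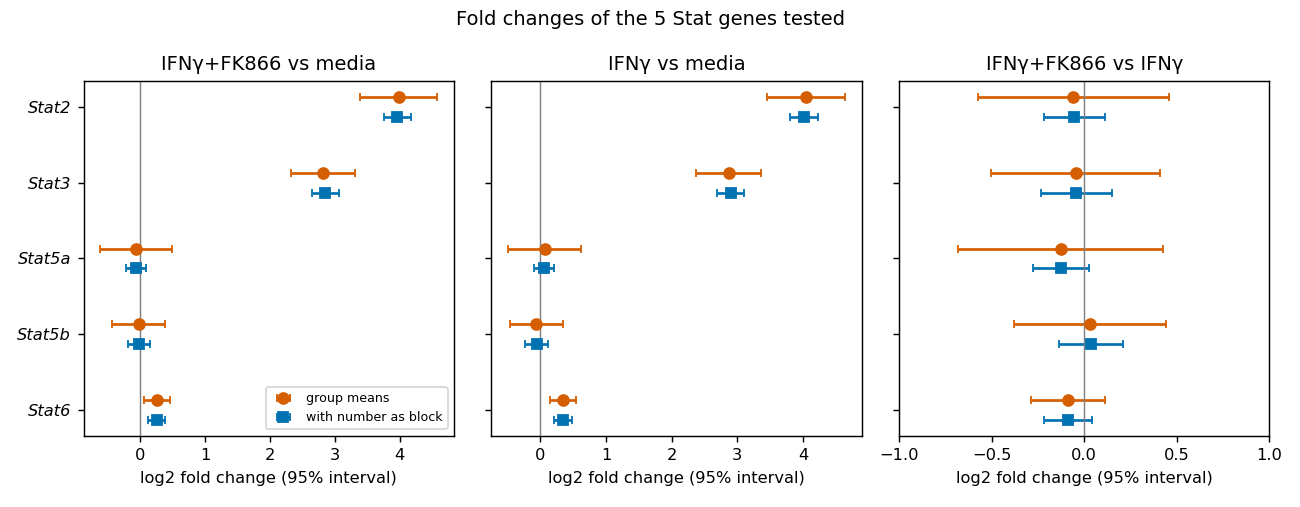
Log2 fold changes (x axis) of the 5 Stat genes tested in the 3 comparisons, with 95% intervals, from the fit of group means (circles) and from the fit with the number as a block (squares); the right panel has a narrower x axis. Stat2 and Stat3 lie near 4 and 2.8 against media, while every interval of IFNγ plus FK866 against IFNγ includes 0.

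The Stat genes also differed between the numbers in the titles. In a fit with group and number, 4 of the 5 genes tested differed between numbers, where 51.8% of all genes did, and nothing particular to the family can be read from a count over 5 genes. Stat5a was low in number 5 in every group. It had 28.0 CPM in number 5 against 45.5 and 44.6 CPM in numbers 3 and 4 with IFNγ plus FK866, 30.1 against 48.1 and 51.0 CPM with IFNγ, and 32.3 against 45.2 and 46.0 CPM in media (edgeR adjusted p = 7.22e-07). Stat5b was highest in number 4 in every group, with 56.4, 55.9 and 59.0 CPM in IFNγ plus FK866, IFNγ and media (adjusted p = 4.40e-04). The neighbours Stat5a and Stat5b therefore varied together only in part. Both were lower in number 5 than in number 4 in every group. From number 3 to number 4 the log2 difference was 0.03 for Stat5a and 0.43 for Stat5b. The share of Stat5a in the counts of both genes was 49.1% to 54.0% in number 3, 43.8% to 47.7% in number 4 and 39.4% to 40.4% in number 5.

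Stat2 and Stat3 were lowest in number 5 in every group (edgeR adjusted p = 1.07e-05 and 0.00128). Stat6 hardly varied, with means over the 3 groups of 106, 107 and 101 CPM in numbers 3, 4 and 5 (adjusted p = 0.557), and its highest library was 1.38 times its lowest among all 9. Without number 5 only Stat5b was still called between numbers 3 and 4 (adjusted p = 2.01e-04), and without number 4 Stat5b was not (0.553). Scaled by library totals alone, Stat6 was called too (adjusted p = 0.0494). In a fit added after seeing the data, 1 of the 5 genes, Stat3, was called for an IFNγ effect that differed between numbers. Of all genes 0.761% were. Each number has a single media library, so the spread between media libraries does not enter that test.

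**Figure D4:**
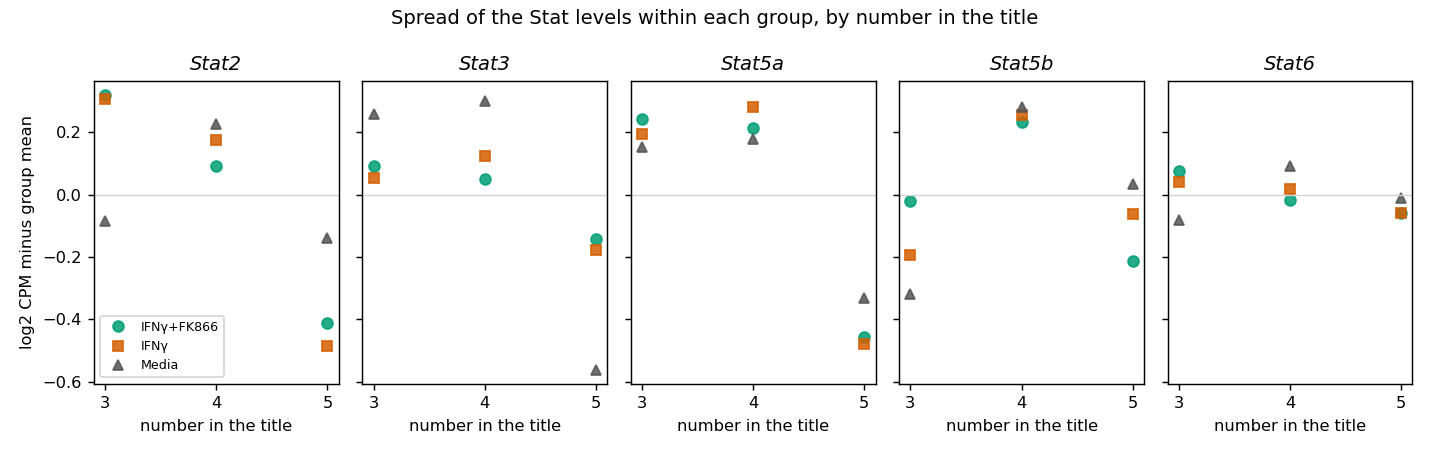
Log2 CPM of each library minus its group mean (y axis) for the 5 Stat genes tested, by the number in the title (x axis, names without order), with 1 symbol per group. Number 5 lies below the group mean in all 3 groups for Stat2, Stat3 and Stat5a, number 4 lies highest for Stat5b, and Stat6 stays close to 0.

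Upstream of the STAT proteins, 3 of 17 tested genes for cytokine receptors and Janus kinases rose with IFNγ and 0 fell (22 listed). Over all genes tested, 2.8% rose and 0.499% fell. The median log2 fold change was 0.40, against -0.01 over all genes. With the replicate block 9 rose and 2 fell, where 8.12% of all genes rose and 6.14% fell. Jak2, a kinase of the IFNγ receptor, had 77.5 ± 2.99 CPM with IFNγ and 42.8 ± 2.74 CPM in media (SD, n = 3 each; edgeR adjusted p = 5.48e-04). Ifnar2, a chain of the type I interferon receptor, had 59.6 ± 9.49 CPM with IFNγ and 28.0 ± 3.64 CPM in media (adjusted p = 0.00397). Il12rb1, a chain of the interleukin-12 receptor that signals to STAT4, was low at 2.34 ± 0.618 CPM with IFNγ and 0.369 ± 0.223 CPM in media (adjusted p = 0.0141), and its call was lost without IFNγ library 4 (0.0615). Its partner chain Il12rb2 had no count in any library. Jak1 had 222 ± 20.7 CPM with IFNγ and 165 ± 2.55 CPM in media, and only the block gave a call (adjusted p = 1.19e-04). Ifngr2, a chain of the IFNγ receptor, had 42.9 ± 4.75 CPM with IFNγ and 54.4 ± 8.21 CPM in media. It was called lower only with the block (edgeR adjusted p = 0.00174). The ligand-binding chain of the IFNγ receptor, Ifngr1, had 11.1 ± 1.34 CPM with IFNγ and 9.79 ± 0.885 CPM in media and was not called (adjusted p = 1).

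Among 13 cofactors and partners of STAT proteins 2 rose and 0 fell (median 0.07), where 2.8% of all genes rose. With the block 2 rose and 1 fell, against 8.12% and 6.14% of all genes. Irf9, the DNA-binding partner of STAT2, had 56.7 ± 9.69 CPM with IFNγ and 4.21 ± 1.58 CPM in media, or 3.75 higher on the log2 scale (standard error 0.27, edgeR adjusted p = 2.41e-05). Nmi, a protein that binds several STAT proteins, had 16.3 ± 1.57 CPM with IFNγ and 4.76 ± 0.292 CPM in media (adjusted p = 7.45e-04). Ncoa1, a coactivator and the third by p, had a log2 fold change of -0.29 and passed the test only with the block (0.00515). The coactivators Crebbp (0.03) and Ep300 (0.07) were not called.

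Of 18 inhibitors of the pathway tested, 5 rose and 0 fell (19 listed, median 0.04), where 2.8% of all genes rose. With the block 6 rose and 1 fell, against 8.12% and 6.14% of all genes. Socs1, which blocks JAK kinases, had 56.8 ± 2.57 CPM with IFNγ and 0.651 ± 0.0887 CPM in media (edgeR adjusted p = 1.13e-08). Socs3, which acts on STAT3-activating receptors, had 118 ± 34.6 CPM with IFNγ and 6.55 ± 2.09 CPM in media (adjusted p = 4.13e-05). Cish, an inhibitor of STAT5 signalling, had 9.97 ± 1.39 CPM with IFNγ and 2.57 ± 0.578 CPM in media (adjusted p = 0.00107). Usp18 and Socs2 were the other members that rose, with log2 fold changes of 4.43 and 1.31. The call of Socs2 (adjusted p = 0.0257) was lost without media library 3, 4 or 5 or IFNγ library 3 or 4 (0.0921, 0.0844, 0.108, 0.0913 and 0.116). None of the 4 Pias genes, which encode nuclear inhibitors of STAT proteins, was called (log2 fold changes from -0.08 to 0.11).

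Genes listed as targets of the ISGF3 complex of STAT2 and IRF9 rose as a group. IRF proteins bind the ISRE too, and which factor raised these genes was not tested. With the block 18 of 19 tested rose, against 8.12% of all genes. Without it, 16 were higher with IFNγ and 0 lower (20 listed), where 2.8% of all genes were called higher. The median log2 fold change was 3.32, the same with Ifi44, which had no media count, at its lower bound. Between 11 and 16 were called when single libraries were left out. Ifit3, uncertain because a nearly identical copy can take its reads, had 76.7 ± 11 CPM with IFNγ and 2.56 ± 0.294 CPM in media (edgeR adjusted p = 5.32e-07). Ddx58, which encodes the RNA sensor RIG-I, had 81.6 ± 10.8 CPM with IFNγ and 7.71 ± 1.47 CPM in media (adjusted p = 3.81e-06). Rtp4 had 56.5 ± 14.2 CPM with IFNγ and 1.51 ± 0.454 CPM in media (adjusted p = 4.64e-06). The ISRE letters searched in Stat2 were found in 9 of the 15 genes of this list that have a promoter window, against 3.99% of all 27025 genes with one. The GAS letters were in 3 of the 15, against 9.55% of all genes. The ISRE is the element that this complex binds, so its share can follow from the choice of the list.

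With the block 8 of 17 tested genes known as STAT3 targets rose and 2 fell, against 8.12% and 6.14% of all genes. Without it, 4 rose and 0 fell (20 listed, median 0.30), where 2.8% of all genes rose. Beside Socs3 these were Bcl6, a transcriptional repressor, with 35.2 ± 4.83 CPM with IFNγ and 4.69 ± 1.07 CPM in media (edgeR adjusted p = 2.55e-05), the kinase gene Pim1 with 10.8 ± 0.638 and 5.50 ± 0.788 CPM (0.00931), and Cebpb with 27.7 ± 5.74 and 13.8 ± 2.33 CPM (0.0497). The call of Cebpb was lost in 6 of the 9 fits that leave out a library. The adjusted p was 0.0736, 0.207 and 0.167 without media 3, 4 and 5, 0.163 and 0.151 without IFNγ 3 and 5, and 0.0786 without IFNγ plus FK866 5. Myc had 74.0 ± 19.0 CPM with IFNγ and 117 ± 33.7 CPM in media, a call that only the block gave (adjusted p = 1.34e-05).

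With the block 4 of 9 tested genes known as STAT5 targets rose and 2 fell, against 8.12% and 6.14% of all genes. Without it, 4 rose and 0 fell (12 listed, median 0.14), where 2.8% of all genes rose. They were Bcl6, Cish, Pim1 and Socs2. Bcl6 and Pim1 also stand in the STAT3 list and Cish and Socs2 among the inhibitors, so these counts are not separate. The list does not give the direction in which STAT5 acts on each gene, so a rise is no measure of STAT5 activity. Of the STAT6 list, mostly genes of myeloid cells, 2 of 12 were tested and 0 called, namely Il4ra (log2 fold change 0.62) and Gata3 (-0.41). Of the STAT4 list 2 of 7 were tested and 1 rose, Furin, with 176 ± 26.2 CPM with IFNγ and 79.3 ± 15.3 CPM in media (edgeR adjusted p = 0.00411). The T-cell genes Ifng and Tbx21 of that list had no count in any library. Between IFNγ plus FK866 and IFNγ, 0 genes of the 8 lists were called, with or without the block.

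**Figure D5:**
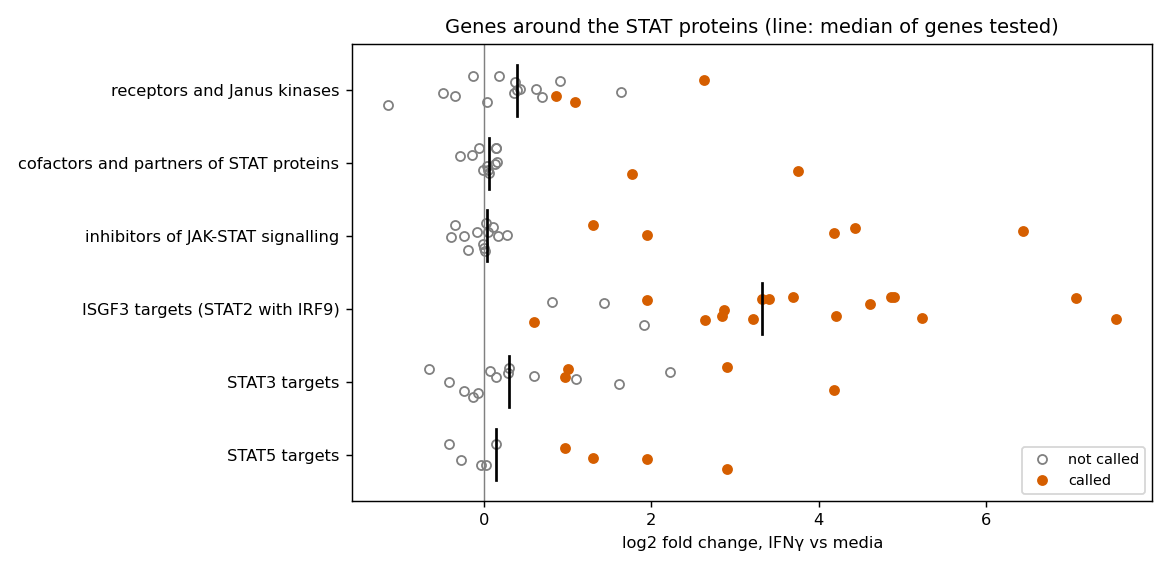
Log2 fold change of IFNγ over media (x axis) for the tested genes of 6 lists around the STAT proteins; filled points were called in edgeR, open points were not, and the black line is the median of the list. In the ISGF3 list 16 of 19 genes are called and the median is 3.32, while the medians of the other lists lie between 0.04 and 0.40.

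The genes whose pattern over the 9 libraries was most like each member were taken from 9843 protein-coding genes outside the family with a mean of at least 5 CPM, by the root mean square difference of log2(CPM + 0.5) centred on each gene's mean. For Stat3 these were Bcl6 (0.11), Ralgds (0.16) and Rsad2 (0.23), against a median of 1.40 over all candidates. Bcl6 and Stat3 both had their lowest level in media 5 within their group. For Stat2 they were Gbp10 (0.20), Irf9 (0.29) and Socs3 (0.30), against a median of 1.89. Gbp10 had no count in media, so its likeness depends on the added 0.5 CPM. For Stat6 they included Kctd10 and Txlna (0.05 each), for Stat5a Ccdc34, Ogt and Nprl2 (0.06 to 0.08), and for Stat5b Lig3, Pif1 and Napg (0.05 to 0.06), against medians of 0.24, 0.35 and 0.27. Libraries share their number and treatment, and these values describe likeness only.

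Reads could be confused between members to a limited extent. Of the distinct stretches of 50 bases in the annotated transcripts, 8.52% of those of Stat5a and 11% of those of Stat5b also occur in another gene, nearly all of them (608) in each other. For Stat3 the share was 0.56%, for Stat2 0.79% and for Stat6 0%. For Stat4 it was 21.7%, all with Gm28177. The labels used here give neither read length nor strand, so reads from the overlapping ends of Stat3 and Stat5a cannot be assigned to either, and the part this played was not tested.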

How the data were processed

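The authors deposited raw read counts per Ensembl gene, 1 column for each of the 9 libraries; the values are whole numbers and their totals differ. Per the submitters' processing notes, which give no role or order, the tools were featureCounts 1.6.3, STAR 2.7.6a, DESeq2 1.30.1 and cutadapt 1.16 and the builds GRCm38 and mm10. Symbols came from the gene name table (55141 of 55487 IDs matched) and coordinates and lengths from GENCODE M21 of GRCm38. The series text names a single-cell platform, but the table has 1 value per gene and library. The main test was that of edgeR 4.0.16 in R 4.3.3 (TMM, filterByExpr, quasi-likelihood F test, Benjamini-Hochberg over 15237 genes, which hold 99.89% of the counts), fitting the 3 group means to all 9 libraries together. Standard errors and intervals were derived from the F statistic. limma 3.58.1 and DESeq2 1.42.0 gave alternatives. The edgeR fits without and with the replicate block were tested on simulated data.

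The main test left out the number in the titles, and only the fits with the replicate block took libraries as paired by it. For IFNγ against media the median standard error over all genes was 0.213 in the main test and 0.107 with the block. Some genes were therefore called only with the block. Across genes, the deviation of a library from its group mean correlated with that of libraries sharing its number at 0.593 to 0.759 (9 pairs). With libraries of another number in another group the correlation was -0.509 to -0.14 (18 pairs). Subtracting the group mean pushes these latter values down, so they are not separate evidence. Since libraries of the same number varied together, values with the number as a replicate block are printed where they change a call or a count. No libraries were merged, since chi-square per degree of freedom within groups was 23.02 to 39.46.

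The members and gene lists were chosen with earlier results of these data known. The named genes were the members, Irf1, the 3 genes of each list with the smallest p for IFNγ against media, and the 3 genes most like each member; any other list member named was picked with its values known. A further gene of the family and 1 gene this rule names are not reported here.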

Additional observations from a re-analysis of the deposited data

Results flagged for a closer look

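The log2 difference of Stat3 between IFNγ and media was larger in number 5 than in numbers 3 and 4, with a single media library per number. In a fit with number, IFNγ, FK866 and the terms for a different IFNγ effect in each number, chosen after seeing the data, the log2 fold change of IFNγ was 0.59 larger in number 5 than in number 3, and 0.03 smaller in number 4 than in number 3 (edgeR adjusted p = 0.00699, 0.761% of all 15237 genes called). Stat3 had 518, 522 and 53.1 CPM in number 5 with IFNγ plus FK866, with IFNγ and in media, against 610, 612 and 93.9 CPM in number 3. This fit matches each media library exactly, so its p-value reflects no spread between media libraries, and the alternatives below share those libraries. A differing response and a single low media library cannot be told apart. The difference rests on media library 5, since each number has a single media library, and a fit without that library cannot estimate it. It was also called with DESeq2-style size factors (0.00591), library totals alone (7.01e-04), DESeq2 (1.12e-04) and limma-voom (0.0105).

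The test was not passed by Stat2 (adjusted p = 0.0847), whose rise was 0.71 smaller in number 5 than in number 3 on the log2 scale, nor by Stat5a (0.685), Stat5b (0.385) or Stat6 (0.49).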

How the results depend on the processing

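The rises of Stat2 and Stat3 against media were called in all 16 alternatives run. When single libraries were left out, the log2 fold change with IFNγ ranged from 3.89 to 4.25 for Stat2 and from 2.64 to 3.01 for Stat3. The number of members called was 2 in each such fit, in both comparisons with media, and 3 with the replicate block, which added Stat6, as did DESeq2 for IFNγ against media; between IFNγ plus FK866 and IFNγ it was 0 in every alternative. With the block no other call of a member changed. Signs turned only among values that were never called, in fits without the block that leave out a library and so break a pair. For IFNγ against media Stat5a ranged from -0.079 to 0.27 and Stat5b from -0.202 to 0.093. For IFNγ plus FK866 against IFNγ Stat2 ranged from -0.267 to 0.12, Stat3 from -0.133 to 0.022, Stat5a from -0.333 to 0.066 and Stat5b from -0.094 to 0.169. For IFNγ plus FK866 against media Stat5a ranged from -0.205 to 0.131 and Stat5b from -0.17 to 0.125. The number of members differing between numbers ranged from 1 to 4 when a number was left out. The counts of the STAT3 and STAT5 targets called with IFNγ plus FK866 against media were 4 each, and 2 each without media 4 or media 5, and 2 of STAT5 targets without IFNγ plus FK866 4. With the length of the longest transcript 4 of the 6 members kept their place in the order of mean levels over all 9 libraries; in media Stat3, Stat5a and Stat5b changed places. Of the members, Stat4 alone had too few counts for a test.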
